A study of Rattus norvegicus with 12 samples.

Results

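Small RNA was sequenced from the choroid of Sprague Dawley rat pups at postnatal day 14 (P14) and P7, and the comparison made here is P14 against P7 within each arm. The 4 libraries, of 12 in the series, are P14 OIR, P7 OIR, P14 CTL and P7 CTL, and each is 1 pool of 5 choroids. OIR pups were raised in cycles of high and low oxygen, the oxygen-induced retinopathy model of retinopathy of prematurity, so P7 falls within and P14 at the end of the oxygen exposure. CTL pups were raised in room air, and both arms are of the same strain. The other 8 libraries are the 4 retinal libraries of these ages and the 4 libraries of P17. With 1 library per age and arm there is no replicate within an arm, and the 95% intervals given with ratios are exact Clopper-Pearson intervals that cover counting error only.

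The choroid is the vascular coat between retina and sclera. It is made of endothelial cells, pericytes, fibroblasts and pigment cells, and its capillary layer feeds the photoreceptors, which mature in the same days. A microRNA (miRNA) is a short RNA that lowers the output of messenger RNAs by pairing with them, mainly through its seed, bases 2 to 8, so that miRNAs with the same seed are read as 1 family. Many miRNAs are near-exclusive to a cell type (miR-126 to endothelium, the miR-182/183/96 cluster to photoreceptors and other sensory cells, miR-1, miR-133 and miR-206 to striated muscle), and others, such as the miR-17 clusters, follow cell proliferation. A change of level in pooled tissue can come from cells of a type becoming fewer or from less RNA per cell, which cannot be told apart here.

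The sequences below are the mature forms of the families on which the comparison turns, from RefSeq (rat build GRCr8), with the seed in capitals. Of 463 miRNAs with at least 10 UMIs per 1000000 miRNA UMIs (RPM) in at least 1 of the 4 libraries, 423 matched a RefSeq mature sequence, and they held 96.9% to 97.2% of miRNA UMIs. miR-29, whose known targets include collagens and other matrix proteins, was higher at P14 in both arms and shares 1 seed.
miR-29a-3p: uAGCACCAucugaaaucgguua
miR-29b-3p: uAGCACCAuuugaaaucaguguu
miR-29c-3p: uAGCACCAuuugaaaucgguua
The miR-17 clusters, which promote proliferation in many tissues, were lower at P14 in both arms, and 3 of their seeds are shown, 1 shared by miR-93, miR-17 and miR-20a.
miR-93-5p: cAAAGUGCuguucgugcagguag
miR-17-5p: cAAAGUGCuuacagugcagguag
miR-20a-5p: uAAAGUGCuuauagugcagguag
miR-19b-3p: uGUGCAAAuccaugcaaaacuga
miR-25-3p: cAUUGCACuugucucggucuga
The muscle miRNAs miR-1b and miR-206-3p share 1 seed, and the epidermal miRNA miR-203a-3p, which had the highest ratio among abundant miRNAs, and the corneal and lens miRNA miR-184 have seeds of their own.
miR-1b: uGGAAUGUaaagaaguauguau
miR-206-3p: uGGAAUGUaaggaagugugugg
miR-203a-3p: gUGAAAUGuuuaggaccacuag
miR-184: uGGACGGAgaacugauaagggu
In GRCr8, the miR-29a hairpin lies at chr4:60617955-60618042 on the minus strand, beside 1 of the 2 hairpins of miR-29b, and the miR-29c hairpin lies at chr13:109099359-109099446 on the plus strand. The hairpins of miR-17 (chr15:98587848-98587931), miR-20a (chr15:98588303-98588387) and one of miR-19b (chr15:98588433-98588519) lie together on the plus strand. Those of miR-93 (chr12:22156844-22156930) and miR-25 (chr12:22156641-22156724) are neighbours on the minus strand. The miR-203 hairpin lies at chr6:137020705-137020801.

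Depth was even across the libraries. They held 9211931 miRNA UMIs in P14 OIR, 9439805 in P7 OIR, 9033745 in P14 CTL and 10457616 in P7 CTL, of 15402469 to 18692653 total reads, and they listed 718, 691, 745 and 667 miRNA entries. The labelled tissue was checked against the miRNAs of other cell types. All 5 entries of the photoreceptor cluster list and all 14 of the neuronal list were listed in every library. These 19 entries took 12.9% of miRNA UMIs in P14 OIR and 14% in P7 OIR, against 4.59% in P14 CTL and 34.6% in P7 CTL, while retinal libraries of these ages held 43.1% to 56.8%. P7 CTL therefore stood apart from the other choroid libraries, P17 included (3.87% and 4.38%). Its photoreceptor cluster came to 83.5% of the level in the retinal library of the same age and arm, where the other 3 choroid libraries came to 7.70% to 25.8%. The cluster held 21.8% of miRNA UMIs in the P7 CTL retina, against 29.9% to 37.4% in the other retinas of these ages. The 83.5% thus rests on a low reference. The P7 CTL retina in turn held more striated muscle and mesenchymal miRNAs than the other retinas of these ages. Striated muscle miRNAs were at 4151 RPM against 449 to 584 RPM, and mesenchymal miRNAs at 19306 RPM against 1637 to 1764 RPM. The CTL ratios below rest on the P7 CTL choroid, and the OIR ratios do not use it.

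**Figure D1:**
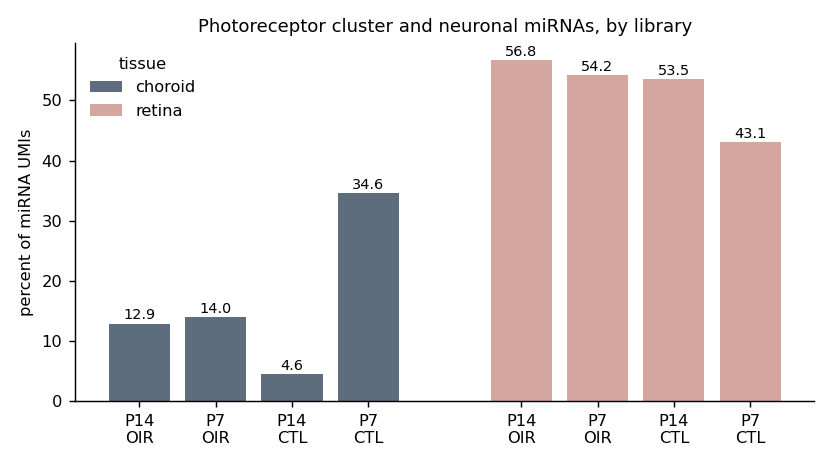
Share of miRNA UMIs held by the photoreceptor cluster and neuronal lists (percent, y axis) in the choroid libraries (left) and the retinal libraries (right) of P14 and P7, 1 bar per library, with no error bars since each is 1 pool. The P7 CTL choroid is at 34.6%, and the other 3 choroid libraries lie between 4.6% and 14%.

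In the OIR choroid, 115 of 463 miRNAs had a P14 to P7 ratio above 1.2 (24.8%) and 139 a ratio below 0.8 (30%). The upper threshold is the one the study uses for its own ratios, and the lower one was chosen here. In the CTL choroid, 253 were above 1.2 (54.6%) and 112 below 0.8 (24.2%). The median log2 ratio of all 463 was -0.10 in OIR and 0.40 in CTL. The CTL median moved with the scaling. With the photoreceptor cluster and neuronal lists taken out of the denominator, it was -0.14, and 173 CTL ratios were above 1.2 and 205 below 0.8. With TMM sizes it was -0.18 (163 above, 210 below), and with total reads as the denominator -0.09 (180 above, 199 below). The direction of a modest CTL ratio therefore depends on the scaling. For some CTL ratios below a second value is given, taken without the retinal lists in the denominator, and a CTL ratio with no second value is on the miRNA UMI scale alone. The retinal lists held 43.1% to 56.8% of miRNA UMIs in retinal libraries of these ages. Other miRNAs of the retina thus stay in that denominator, and the second value removes the retinal share only in part. OIR medians ran from -0.19 to -0.05 over the scalings, though the OIR split of 115 above and 139 below became 130 and 120 with TMM sizes and 94 and 167 with total reads.

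Both arms were above 1.2 for 97 miRNAs (21% of 463) and below 0.8 for 53 (11.4%). Under all 6 scalings tried, 71 (15.3%) were above 1.2 in both arms and 45 (9.72%) below 0.8 in both arms. Among the 99 abundant miRNAs, those with at least 1000 RPM in at least 1 of the 4 libraries, 14 and 8 met this. The 14 were miR-203a-3p, miR-184, miR-200a-3p, miR-141-3p and miR-205 of the surface epithelium list, miR-1-3p, miR-1b and the shared entry of miR-133a-3p and miR-133b-3p of the striated muscle list, miR-29a-3p, miR-378a-3p, miR-99a-5p, miR-23a-3p, miR-34a-5p and miR-3571. The 8 were miR-93-5p, miR-19b-3p, miR-20a-5p and miR-25-3p of the miR-17 clusters, miR-9a-5p and miR-9b-3p of the neuronal list, miR-301a-3p and miR-181a-1-3p. These 2 sets were drawn up after their values were seen. The scalings tested the lower set little. Over the 6, the median log2 ratio of all 463 rose at most from -0.10 to -0.05 in OIR and from 0.40 to 0.43 in CTL. A ratio well below 0.8 could thus hardly leave the lower set.

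**Figure D2:**
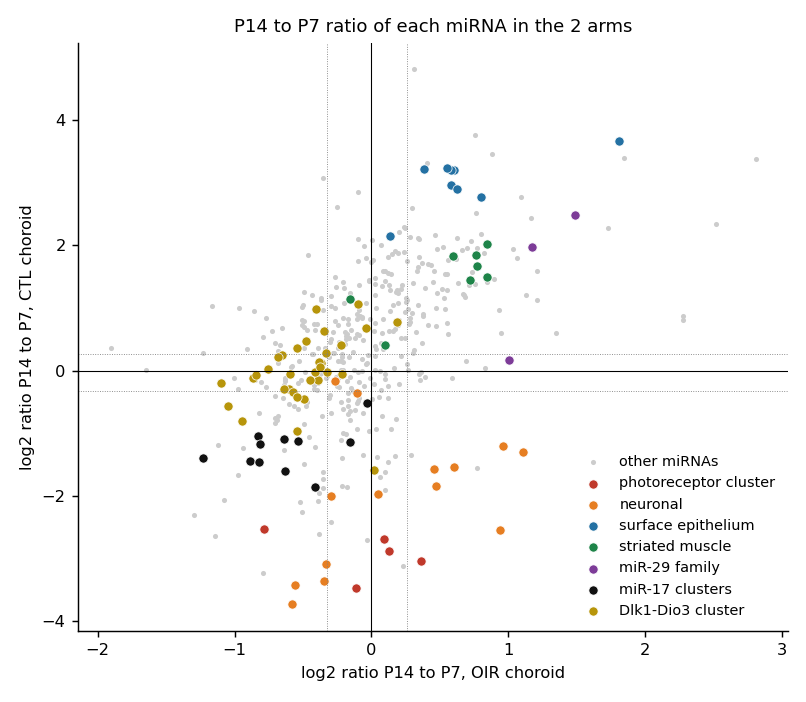
The log2 ratio of P14 to P7 in the OIR choroid (x axis) and in the CTL choroid (y axis) for the 463 miRNAs, with 7 lists coloured and dotted lines at ratios of 1.2 and 0.8. Surface epithelium, striated muscle and miR-29 members lie mostly at the upper right and the miR-17 clusters at the lower left, while the photoreceptor cluster and neuronal lists are spread along x around 0 and lie far below 0 on y.

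The miR-29 family was higher at P14 in both arms. miR-29a-3p had 5943 RPM in P14 OIR and 2118 RPM in P7 OIR, and 5804 RPM in P14 CTL and 1041 RPM in P7 CTL. The ratio was 2.81 (2.76 to 2.85) in OIR and 5.57 (5.46 to 5.69) in CTL, or 3.82 in CTL without the retinal lists. miR-29b-3p had 967 and 428 RPM in P14 and P7 OIR, and 792 and 201 RPM in P14 and P7 CTL. Both P14 libraries were thus above both P7 libraries for these 2 miRNAs. miR-29c-3p had 4918 and 2448 RPM in P14 and P7 OIR, and 3219 and 2861 RPM in P14 and P7 CTL. Its CTL ratio was 1.13, or 0.77 without the retinal lists, so its direction in CTL depends on the scaling. It is the family member that is most abundant in the retina, where it reached 13685 and 12062 RPM at P14 in OIR and CTL. Summed over its seed, the miR-29 family had 11827 and 4994 RPM in P14 and P7 OIR (ratio 2.37, 2.34 to 2.39), and 9815 and 4103 RPM in P14 and P7 CTL (2.39, 2.36 to 2.42). In the retina the median log2 ratio of the 3 members was 2.24 in OIR and 1.46 in CTL, beside 1.18 and 1.97 in the choroid.

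Surface epithelium miRNAs were above 1.2 in both arms for 8 of 9 members, beside 21% of all 463 miRNAs. The list holds the miR-200 family, which keeps epithelial cells in their epithelial state, and miRNAs of epidermis, cornea and conjunctiva. Its median log2 ratio was 0.58 in OIR and 3.2 in CTL, or 2.65 in CTL without the retinal lists. miR-203a-3p, which drives epidermal cells out of the cell cycle into differentiation, had 7084 RPM in P14 OIR and 2020 RPM in P7 OIR, and 5535 RPM in P14 CTL and 436 RPM in P7 CTL. That is a ratio of 3.51 (3.45 to 3.56) in OIR and 12.7 (12.3 to 13.1) in CTL, or 8.71 without the retinal lists, and the 2 P14 libraries were well above the 2 P7 libraries. At P17 it was at 8278 RPM in OIR and 4035 RPM in CTL. The whole list summed to 21616 RPM in P14 OIR and 22801 RPM in P17 OIR, but to 28258 RPM in P14 CTL and 15493 RPM in P17 CTL. miR-184 had 7097 and 4077 RPM in P14 and P7 OIR, and 9568 and 1394 RPM in P14 and P7 CTL. miR-200a-3p had 2925 and 1923 RPM in P14 and P7 OIR, and 4430 and 480 RPM in P14 and P7 CTL. Of the list's 5 members of the miR-200 family, 4 had OIR ratios of 1.49 to 1.54, and miR-141-3p had 1.31. Only miR-31a-5p of this list stayed under 1.2 in OIR (1.1), with 4.43 in CTL.

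Striated muscle miRNAs were above 1.2 in both arms for 6 of the 8 measured members, beside 21% of all 463 miRNAs. Their median log2 ratio was 0.74 in OIR and 1.59 in CTL (1.04 without the retinal lists). miR-1b was the most abundant, at 19937 and 12091 RPM in P14 and P7 OIR, and 20432 and 7537 RPM in P14 and P7 CTL. miR-1-3p had 6078 and 3559 RPM in P14 and P7 OIR, and 7941 and 2494 RPM in P14 and P7 CTL. The entry shared by miR-133a-3p and miR-133b-3p had 2236 and 1319 RPM in P14 and P7 OIR, and 3476 and 971 RPM in P14 and P7 CTL. In OIR these 3 had nearly the same ratio, 1.65 to 1.71. miR-206-3p, which unlike miR-1-3p is made in skeletal but not in heart muscle, did not move with these 3 in OIR. It had 8467 and 9463 RPM in P14 and P7 OIR (ratio 0.90), and 15902 and 7225 RPM in P14 and P7 CTL (2.2). miR-499-5p, made from the myosin heavy chain gene Myh7b, had OIR and CTL ratios of 1.07 and 1.33, the CTL one being 0.911 without the retinal lists. The list summed to 37229 and 26858 RPM in P14 and P7 OIR, and to 48279 and 18517 RPM in P14 and P7 CTL, against 449 to 4151 RPM in retina of these ages. At P17 it was at 15810 RPM in OIR and 37292 RPM in CTL, so the OIR level at P14 lay above those at P7 and P17. Surface epithelium and striated muscle are not tissues of the choroid, and the part of other tissue in these pools was not tested.

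**Figure D3:**
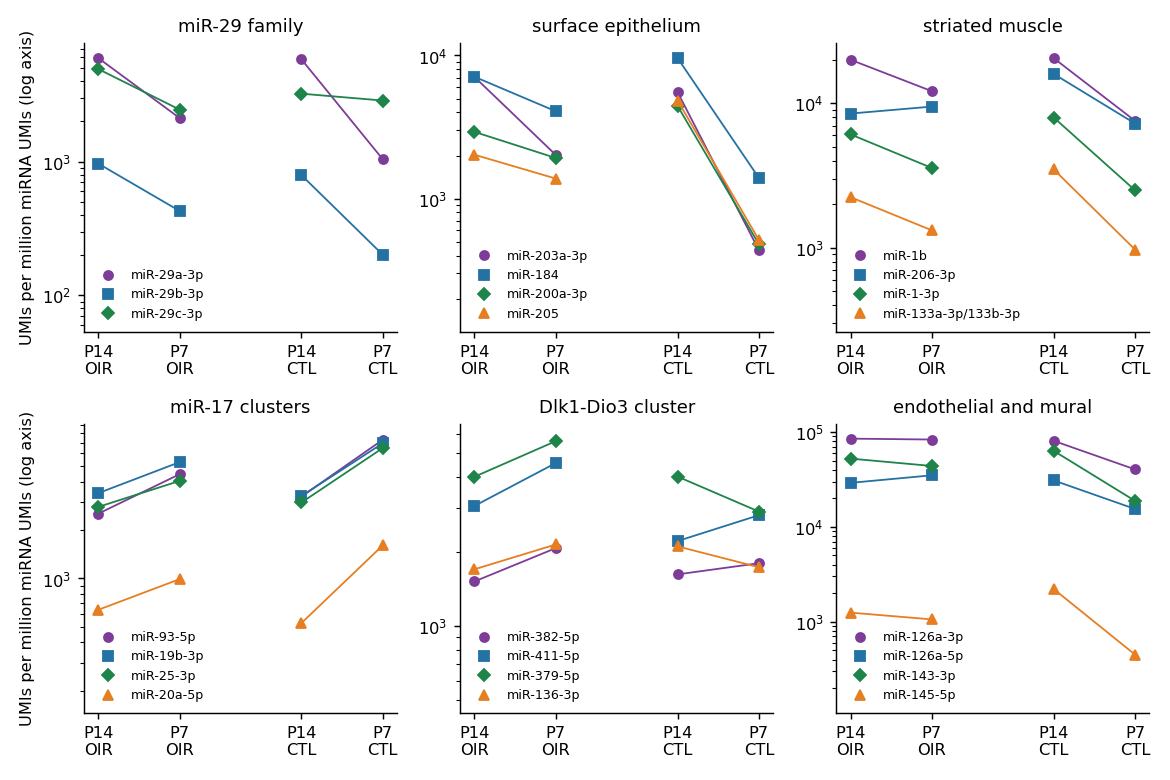
Levels of 4 members (3 for miR-29) of 6 groups in the P14 OIR, P7 OIR, P14 CTL and P7 CTL choroid, in UMIs per 1000000 miRNA UMIs on log axes, 1 point per library and a line joining the 2 ages of an arm. miR-29, surface epithelium and most muscle members are higher at P14 in both arms, the miR-17 members are lower at P14 in both, and the Dlk1-Dio3 and the endothelial and mural members differ between the arms.

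The miR-17 clusters (miR-17-92, miR-106b-25 and miR-106a-363) were below 0.8 in both arms for 9 of 11 members, beside 11.4% of all 463 miRNAs. These 9 stayed so under all 6 scalings, which raise the ratios of either arm only a little. The median log2 ratio was -0.64 in OIR and -1.17 in CTL. miR-93-5p had 2530 RPM in P14 OIR and 4449 RPM in P7 OIR, and 3232 RPM in P14 CTL and 7293 RPM in P7 CTL. Its ratio was 0.57 (0.56 to 0.58) in OIR and 0.44 (0.44 to 0.45) in CTL. miR-19b-3p had 3394 and 5290 RPM in P14 and P7 OIR, and 3258 and 6935 RPM in P14 and P7 CTL. For miR-25-3p the values were 2787 and 4043 RPM in P14 and P7 OIR, and 2969 and 6473 RPM in P14 and P7 CTL. For miR-17-5p, the name-giver, they were 104 and 244 RPM in P14 and P7 OIR, and 103 and 272 RPM in P14 and P7 CTL. In each of these, both P14 pools lay below both P7 pools, and the ratio between the P14 pools was nearer to 1 than that between the P7 pools. miR-20a-5p had 638 and 990 RPM in P14 and P7 OIR, and 528 and 1607 RPM in P14 and P7 CTL. miR-20b-5p and miR-363-3p, both of the X-linked miR-106a-363 cluster and both under 70 RPM, had OIR ratios of 0.98 and 0.90. Summed by seed, the family of miR-93-5p, miR-17-5p and miR-20a-5p had ratios of 0.58 in OIR and 0.42 in CTL, the miR-19 family 0.63 and 0.46, and the family of miR-25-3p and miR-92a-3p 0.71 and 0.44. The same list was lower at P14 in the retina, with a median log2 ratio of -1.15 in OIR and -1.20 in CTL. Retina held more of it than choroid at P7 (33659 RPM in OIR and 31540 RPM in CTL, against 16387 and 24592 RPM in choroid), so the larger retinal share of the P7 CTL pool moves with the CTL ratio, and its part in that ratio was not tested. In OIR, 9 of 11 were below 0.8, beside 30% of all 463 miRNAs, and members of the same cluster are not independent of each other. The retinal lists together held 12.9% and 14% of miRNA UMIs in P14 and P7 OIR. The photoreceptor cluster held 8.43% and 7.73%, and the neuronal list had 45117 and 62660 RPM. The part of retina in the OIR ratios was not tested either.

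The miR-15 family was divided. miR-15b-5p, which restrains cell cycle genes yet is made from a gene of dividing cells (Smc4), had 193 and 380 RPM in P14 and P7 OIR, and 232 and 737 RPM in P14 and P7 CTL. Its relatives of the same seed from another gene ran the other way, with OIR ratios of 1.31 for miR-195-5p and 1.13 for miR-497-5p and CTL ratios of 2.48 and 3.74. Of the 6 members of the miR-15 family, 1 was above 1.2 in both arms and 1 below 0.8 in both. miR-301a-3p, of the miR-130 seed family, had 1357 and 2192 RPM in P14 and P7 OIR, and 1212 and 2092 RPM in P14 and P7 CTL, close to each other in the 2 arms at both ages. The miR-190 pair was lower at P14 in both arms, with ratios of 0.78 in OIR and 0.61 in CTL for miR-190a-5p, and 0.78 and 0.27 for miR-190b-5p. miR-378a-3p, made from an intron of the metabolic coactivator gene Ppargc1b, was at 1614 and 868 RPM in P14 and P7 OIR, and at 1934 and 704 RPM in P14 and P7 CTL. miR-99a-5p had 3481 and 2370 RPM in P14 and P7 OIR, and 4100 and 1675 RPM in P14 and P7 CTL. miR-21-5p, raised in many growing or injured tissues, had 19633 and 13289 RPM in P14 and P7 OIR, and 13082 and 8762 RPM in P14 and P7 CTL. The ratios of miR-21-5p, 1.48 and 1.49, are alike, but the CTL one was 1.02 without the retinal lists and 0.995 with TMM sizes.

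The imprinted Dlk1-Dio3 cluster is a large group of miRNAs made from the maternal chromosome and mostly quiet in adult tissues other than brain. In OIR, 27 of its 33 measured members were below 0.8, beside 30% of all 463 miRNAs, and 0 were above 1.2. The OIR median log2 ratio was -0.48. In CTL, 9 members were above 1.2 and 7 below 0.8, beside 54.6% and 24.2% of all 463, with a median of -0.02. Without the retinal lists in the denominator, 2 members were above and 23 below, beside 173 and 205 of the 463, with a median of -0.56. miR-411-5p had 3058 and 4557 RPM in P14 and P7 OIR, and 2205 and 2805 RPM in P14 and P7 CTL. miR-382-5p had 1514 and 2064 RPM in P14 and P7 OIR, and 1617 and 1794 RPM in P14 and P7 CTL. miR-379-5p had 4012 and 5588 RPM in P14 and P7 OIR, and 4017 and 2901 RPM in P14 and P7 CTL. The 2 P14 pools held nearly the same level of miR-379-5p, and the P7 pools differed, with a CTL ratio that was below 1 without the retinal lists (0.949). In all, 6 members were below 0.8 in both arms, 5 of them under all scalings. The members come from 1 locus and are not independent of each other.

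The vascular and stromal miRNAs, which hold several of the most abundant choroidal miRNAs, differed little between the ages in OIR. On the miRNA UMI scale no endothelial (of 3), smooth muscle and pericyte (of 4) or mesenchymal (of 5) member passed either threshold there, with median log2 ratios of 0.03, 0.17 and -0.04. Over the 6 scalings the OIR ratio reached 1.24 for miR-143-3p and 1.22 for miR-145-5p, and 0.783 for miR-126a-5p and 0.766 for miR-199a-5p, past the thresholds. miR-126a-3p, the endothelial miRNA that sustains the response to VEGF and the most abundant miRNA over the 4 libraries, had 85023 RPM in P14 OIR and 83193 RPM in P7 OIR (ratio 1.02), and 80499 RPM in P14 CTL and 40297 RPM in P7 CTL (2.00, or 1.37 without the retinal lists). miR-126a-5p, its partner strand, had 29096 and 34922 RPM in P14 and P7 OIR, and 30837 and 15433 RPM in P14 and P7 CTL. miR-143-3p, of smooth muscle and pericytes, was at 52358 and 43800 RPM in P14 and P7 OIR, and at 63147 and 18779 RPM in P14 and P7 CTL. miR-199a-3p, of mesenchymal cells, was at 62065 and 63879 RPM in P14 and P7 OIR, and at 70281 and 33280 RPM in P14 and P7 CTL. In each of these the P7 CTL pool was the lowest, and the other 3 lay nearer to each other than to it. They were not all alike, since miR-143-3p ran from 43800 to 63147 RPM among them. Of the other most abundant miRNAs, miR-125b-5p had OIR and CTL ratios of 1.05 and 1.52, miR-16-5p 0.86 and 0.70, let-7f-5p 0.94 and 0.89, and let-7i-5p 0.93 and 1.78. Without the retinal lists the CTL ratio of miR-125b-5p was 1.04 and that of let-7i-5p 1.22. All 12 members of the 3 lists were above 1.2 in CTL, beside 54.6% of all 463 miRNAs. Without the retinal lists in the denominator 11 were above, beside 173 of the 463, and that denominator removes the retinal share only in part.

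**Figure D4:**
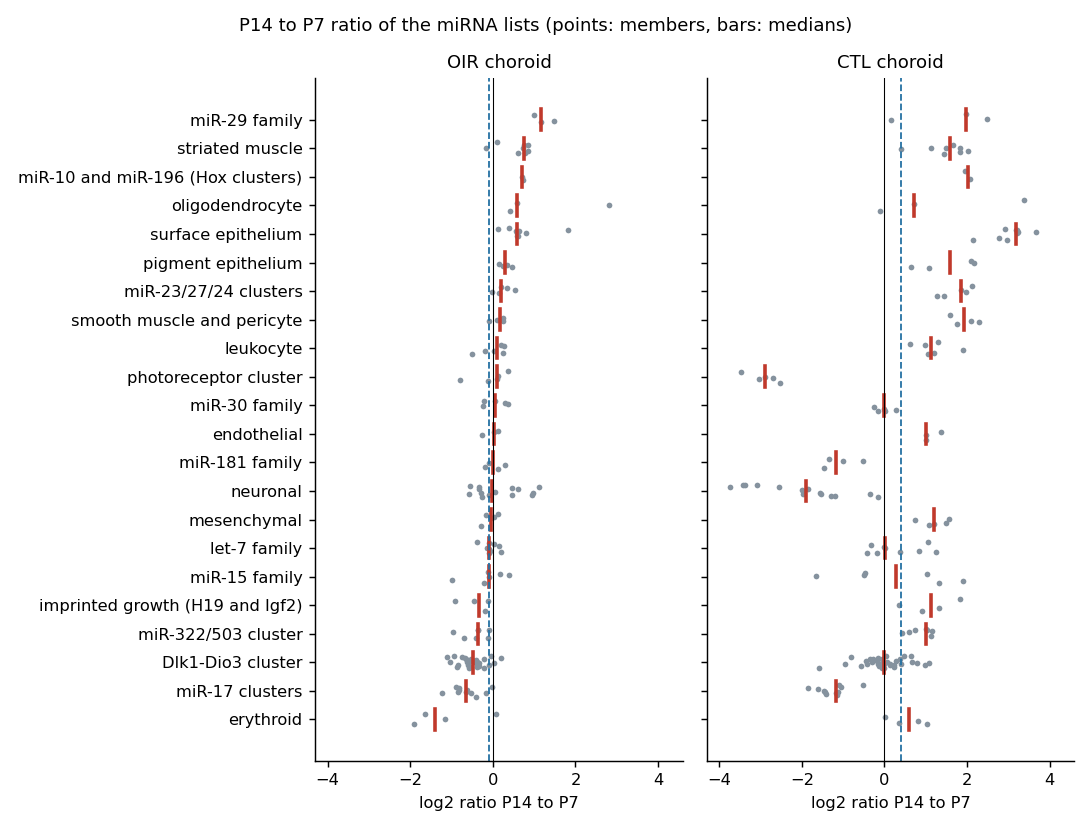
The log2 ratio of P14 to P7 in the OIR choroid (left) and the CTL choroid (right) for the 22 lists with at least 2 measured members, ordered by their OIR median. Points are members, red bars list medians and the dashed blue line the median of all 463 miRNAs (-0.10 in OIR, 0.40 in CTL), and miR-29, muscle and surface epithelium lie above it in both arms and the miR-17 clusters below it in both.

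Photoreceptor cluster and neuronal miRNAs moved apart in the 2 arms. In CTL all 5 photoreceptor and 13 of 14 neuronal members were below 0.8, beside 24.2% of all 463 miRNAs. Their median log2 ratios were -2.89 and -1.91. In OIR 1 and 6 were above 1.2 and 1 and 4 below 0.8, with medians of 0.09 and -0.03. miR-182 had 56227 and 52851 RPM in P14 and P7 OIR, and 17584 and 113470 RPM in P14 and P7 CTL. miR-9a-5p, of neural progenitors and Müller glia, had 34753 and 51254 RPM in P14 and P7 OIR, and 12919 and 138585 RPM in P14 and P7 CTL. miR-124-3p, of mature neurons, had 1284 and 668 RPM in P14 and P7 OIR, and 340 and 1985 RPM in P14 and P7 CTL. The OIR ratios of neuronal miRNAs thus differed among themselves, and the 2 lists together held 12.9% and 14% of miRNA UMIs in P14 and P7 OIR. miR-9b-3p had OIR and CTL ratios of 0.67 and 0.08, and miR-181a-1-3p had 0.77 and 0.16. miR-96-5p of the photoreceptor cluster had 9078 and 7076 RPM in P14 and P7 OIR, and 2834 and 23238 RPM in P14 and P7 CTL. The oligodendrocyte miRNA miR-219a-2-3p, which was chosen after its values were seen, had 49.8 and 7.10 RPM in P14 and P7 OIR, and 39.0 and 3.73 RPM in P14 and P7 CTL, a ratio of 7.02 (5.42 to 9.21) and 10.4 (7.49 to 14.9). In the retina it was at 1.43 RPM in P14 OIR, 3.99 RPM in P7 OIR, 2.54 RPM in P14 CTL and 7.99 RPM in P7 CTL. The other oligodendrocyte entries, miR-219a-5p and miR-338-3p, had OIR ratios of 1.5 and 1.33 and CTL ratios of 0.93 and 1.65.

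Some miRNAs were lower at P14 in OIR and higher at P14 in CTL. Over all 463 miRNAs, 41 were below 0.8 in OIR and above 1.2 in CTL, and 9 were the reverse. Of the 463, 30% were below 0.8 in OIR and 54.6% above 1.2 in CTL, or 173 miRNAs in CTL without the retinal lists. The list counts that follow stand beside these shares. The erythroid miRNAs miR-144-3p (65.2 and 244 RPM in P14 and P7 OIR, against 51.5 and 40.0 RPM in P14 and P7 CTL) and miR-451-5p (38.8 and 87.0 RPM in P14 and P7 OIR, against 47.6 and 23.2 RPM in P14 and P7 CTL) were highest in the P7 OIR pool. The list's miR-486 had 55.0 and 52.0 RPM in P14 and P7 OIR. Of the 4 erythroid entries, 3 were below 0.8 in OIR and 3 above 1.2 in CTL, with a CTL median log2 ratio of 0.59. Without the retinal lists, 2 were above 1.2 and 1 below 0.8 in CTL, with a median of 0.05, and the CTL ratio of miR-144-3p was 0.882. The cluster of miR-322 and miR-503, X-linked and active in growing muscle and stroma, had 5 of 7 members below 0.8 in OIR and 7 of 7 above 1.2 in CTL, with 4 of 7 above without the retinal lists. miR-503-5p had 273 and 533 RPM in P14 and P7 OIR, and 470 and 235 RPM in P14 and P7 CTL. miR-542-3p had 4657 and 7607 RPM in P14 and P7 OIR, and 4267 and 3159 RPM in P14 and P7 CTL. The miRNAs within the imprinted growth genes H19 (miR-675) and Igf2 (miR-483) were under 50 RPM in every library, with 2 of 4 entries below 0.8 in OIR and 4 of 4 above 1.2 in CTL, or 3 of 4 in CTL without the retinal lists. Among opposite movers outside these lists, miR-130a-3p had 2646 and 3721 RPM in P14 and P7 OIR, and 3188 and 2480 RPM in P14 and P7 CTL. The CTL ratios of miR-542-3p and miR-130a-3p were below 1 without the retinal lists (0.925 and 0.881). For miR-148a-3p the levels were 18050 and 23072 RPM in P14 and P7 OIR, and 18633 and 9538 RPM in P14 and P7 CTL. The difference between the arms could not be tested with 1 library per age and arm.

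Of the remaining lists, the let-7 family, which rises with differentiation in many tissues, had median log2 ratios of -0.09 in OIR and 0.02 in CTL, and 0 of 9 members passed 1.2 in OIR. Without the retinal lists its CTL median was -0.52, with 3 members above 1.2 and 5 below 0.8. Within it, let-7c-5p, made from the same transcript as miR-99a, had 23189 and 20766 RPM in P14 and P7 OIR, and 33937 and 16417 RPM in P14 and P7 CTL. The miR-30 family had medians of 0.06 in OIR and 0.00 in CTL, or -0.54 in CTL without the retinal lists. Leukocyte miRNAs had a median of 0.11 in OIR, where 1 of 6 passed each threshold, and 1.13 in CTL. Pigment epithelium miRNAs were higher at P14 for 2 of 4 entries in both arms, though these were the minor strands under 70 RPM, while the main product miR-204-5p had 16410 and 14727 RPM in P14 and P7 OIR, and 18728 and 12033 RPM in P14 and P7 CTL. The miR-23/27/24 clusters, which act on vessel growth, had 2 of 5 members above 1.2 in both arms, miR-23a-3p at 3150 and 2188 RPM in P14 and P7 OIR, and 4809 and 1227 RPM in P14 and P7 CTL, and miR-24-3p with ratios of 1.27 and 4.36. miR-10a-5p and miR-10b-5p, from the Hox clusters, had OIR ratios of 1.62 and 1.66 and CTL ratios of 3.89 and 4.22, at up to 253 RPM. The miR-181 family had a median of 0.01 in OIR and -1.17 in CTL. miR-210-3p, the miRNA most closely tied to hypoxia, had 418 and 401 RPM in P14 and P7 OIR (ratio 1.04), and 211 and 687 RPM in P14 and P7 CTL (0.31). In retina of these ages the miR-181 family summed to 3842 to 4944 RPM, against 3406 RPM in the P7 CTL choroid. The hypoxia list, which holds miR-210-3p, summed to 648 to 1327 RPM in those retinas, against 693 RPM in the P7 CTL choroid. The part of retina in the CTL values of miR-181 and miR-210-3p was not tested. miR-132-3p, induced by neuronal activity, had 44.1 and 17.3 RPM in P14 and P7 OIR, and 30.7 and 20.3 RPM in P14 and P7 CTL.

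Taking the arms as repeats, edgeR's quasi-likelihood test on the 6 choroid libraries (age as a factor, arm as a block, 2 residual degrees of freedom) called 0 of 721 miRNAs (0%) at a Benjamini-Hochberg adjusted p of 0.05, and 120 had an unadjusted p under 0.05. DESeq2 on the same design called 7 higher and 14 lower. The lowest adjusted p from edgeR was 0.192, for miR-147. miR-203a-3p had a log2 change of 2.46 (SE 0.48, edgeR adjusted p = 0.298, DESeq2 adjusted p = 6.31e-05), and miR-29a-3p one of 1.73 (SE 0.37, edgeR adjusted p = 0.298, DESeq2 adjusted p = 9.83e-04). Of the miR-17 clusters, 9 of 11 had an unadjusted edgeR p under 0.05, all lower at P14, beside 120 of all 721, and 0 passed adjustment. Members of the same cluster are not independent of each other, and the list was chosen with earlier results of these data known. The count of 9 is therefore not a test of the list. Leaving out the P7 OIR choroid gave 14 higher and 18 lower by edgeR, with the lone P7 library taken to vary like the other groups, and leaving out each of the other 5 choroid libraries gave 0. The age change was also compared between choroid and retina over the 12 libraries. The interaction test of edgeR called 0 of 687 (0%), with 90 at an unadjusted p under 0.05, and DESeq2 called 7 higher and 7 lower in choroid. Without the P7 OIR retina edgeR made calls, but the P7 CTL retina was then the only retinal library of P7. The P7 CTL choroid entered both tests, and without it edgeR also called 0 in each.

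Fragments of transfer RNAs (tRNAs), which cells cut from mature tRNAs in quantity under stress, were counted in the same libraries. They came to 38927 UMIs per 1000000 miRNA UMIs in P14 OIR and 20003 in P7 OIR, and to 112697 in P14 CTL and 10800 in P7 CTL. The ratio was 1.95 (1.94 to 1.96) in OIR and 10.4 (10.4 to 10.5) in CTL. P14 CTL stood apart here, since the P17 choroids held 32088 in OIR and 36052 in CTL. In the retina the ratio was 0.68 in both arms. In OIR, 87 of 192 tRNA entries with at least 10 UMIs per 1000000 miRNA UMIs were above 1.2 and 36 below 0.8, and in CTL 156 were above and 5 below. The higher P14 levels lay mainly in glycine and valine tRNAs. GlyGCC fragments had 24766 and 12051 in P14 and P7 OIR, and 62121 and 4102 in P14 and P7 CTL. GlyCCC fragments had 4940 and 856 in P14 and P7 OIR, and 19798 and 583 in P14 and P7 CTL, the highest OIR ratio of any anticodon (5.77). ValCAC fragments had 2060 and 780 in P14 and P7 OIR, and 10330 and 501 in P14 and P7 CTL. AspGTC and LysTTT fragments were below 1 in OIR (0.81 and 0.66) and at 1.61 and 1.55 in CTL. Of the 10 entries with the most UMIs, 8 were above 1.2 and 1 below 0.8 in OIR, and 9 were above 1.2 in CTL. Copies of a tRNA share sequence, so the split between entries of 1 anticodon is uncertain.

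**Figure D5:**
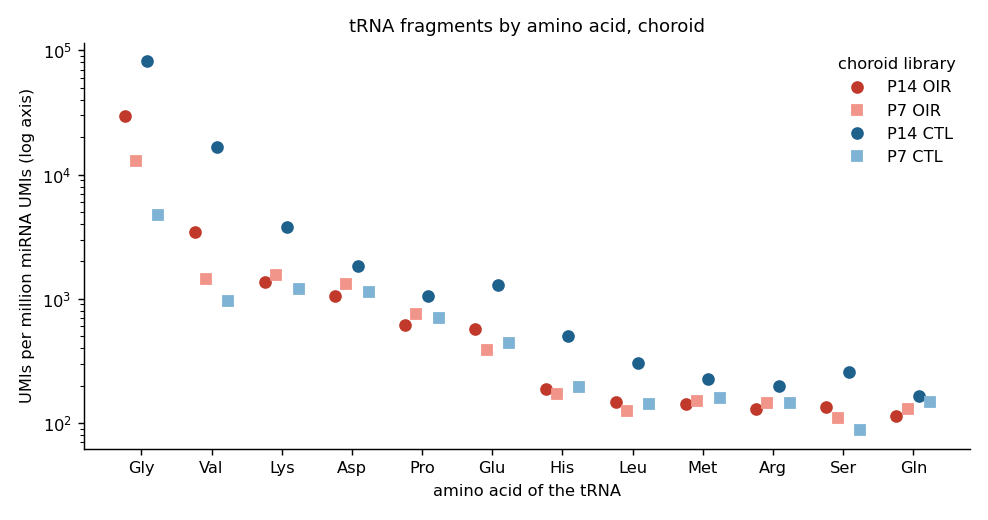
tRNA fragments by amino acid in the P14 OIR, P7 OIR, P14 CTL and P7 CTL choroid, in UMIs per 1000000 miRNA UMIs on a log axis, for the 12 most abundant amino acids, 1 point per library. Gly and Val are higher at P14 in both arms (ratios 2.30 and 2.39 in OIR, 17.4 and 17.3 in CTL), while Lys, Asp and Pro lie below 1 in OIR and above 1 in CTL.

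Other RNA classes moved in the same direction in CTL. piRNA entries had a ratio of 1.06 in OIR and 2.43 in CTL, and the other small RNAs 1.31 and 5.34. Reads too short to assign were 28.8% of all reads in P14 OIR and 23.6% in P7 OIR, and 26.9% in P14 CTL and 13.1% in P7 CTL. Reads that mapped nowhere were 5.78% in P14 CTL, against 2.45% to 3.12% in the other 3 libraries, and reads from messenger RNA were 1.70% there, against 0.63% to 1.01%. The part of RNA breakdown in the tRNA ratios was not tested. The retinal share moves with them as well, since retinal libraries of these ages held 6326 to 11083 tRNA UMIs per 1000000 miRNA UMIs, less than every choroid library but P7 CTL (10800).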

How the data were processed

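The labels and the study's methods give tissue, age and arm of each library. The deposited files hold counts (reads and UMIs, not normalized) of each miRNA, piRNA, tRNA and other RNA with at least 10 UMIs, made by the authors with bcl2fastq 2.20, cutadapt and Bowtie on Rnor_6.0, per the submitters' processing notes. Library kit and RNA extraction are given differently in the labels (QIAseq miRNA, TRIzol with RNeasy) and in the paper. UMIs make intervals cover molecules rather than PCR copies, though not animals.

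Here levels were scaled to miRNA UMIs, an unlisted miRNA was set to 10 UMIs as a bound, and ratios carried exact conditional 95% intervals. Tests used edgeR 4.0.16 in R 4.3.3 (TMM sizes, with miRNAs kept where 0.5 or more of the fitted libraries held 10 or more UMIs), with DESeq2 1.42.0 as an alternative, and were tested on simulated data. The rest used Python 3.11.15, pandas 2.3.3, scipy 1.17.1 and matplotlib 3.10.9. Alternatives were reads, 4 other denominators, thresholds, filters and leaving out libraries. "Under all 6 scalings" is the level used plus reads and these 4.

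The members and the 24 miRNA lists (171 names) were chosen with earlier results of these data known. Named miRNAs were the 10 most abundant, the 10 highest and 10 lowest abundant miRNAs by the ratio of the arm nearer to 1 among those past the threshold in both arms, those past it in opposite directions, and the most abundant list members. The 10 largest changes of the edgeR test were to be named too, but none passed. Other miRNAs named were chosen after their values were seen.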

Additional observations from a re-analysis of the deposited data

Results flagged for a closer look

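In all, 10 results among the abundant miRNAs and the lists went opposite ways in the 2 arms. In each, the ratio, or the list median taken as a ratio, was above 1.2 in 1 arm and below 0.8 in the other. With 1 library per age and arm, the difference between the arms was not tested. In log2 units, the P14 to P7 ratio in OIR minus that in CTL was 3.49 for miR-124-3p and 3.40 for miR-96-5p, both higher at P14 in OIR and lower in CTL, where the P7 CTL pool held the most retinal miRNAs. It was -1.32 for miR-148a-3p, -1.14 for miR-542-3p, -0.95 for miR-379-5p, -0.85 for miR-130a-3p and -0.61 for miR-136-3p, all lower at P14 in OIR and higher in CTL. For the last 4 of these 5 the CTL ratio was below 1 with total reads, TMM sizes or no retinal lists in the denominator (0.925, 0.949, 0.881 and 0.832 without the retinal lists), so both arms were then lower at P14. For the list medians it was -2.0 for erythroid miRNAs, -1.37 for the cluster of miR-322 and miR-503 and -1.45 for the imprinted growth miRNAs. Without the retinal lists the CTL median was 0.05 for the erythroid list, 0.46 for the cluster of miR-322 and miR-503 and 0.57 for the imprinted growth list. Over all 463 miRNAs the median was -0.10 in OIR and 0.40 in CTL, or -0.14 in CTL without the retinal lists.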

How the results depend on the processing

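The counts that differ by more than 1.5 times from those reported are these. With total reads as the denominator, 199 were below 0.8 in CTL and 108 in both arms. With TMM sizes, CTL had 163 above and 210 below and both arms 87 below. Without the retinal lists in the denominator, 205 were below in CTL and 99 in both arms. Thresholds of 2 and 0.5 gave 19 above and 12 below in OIR, 145 and 64 in CTL, and 14 and 5 in both. With the whole interval past the threshold, OIR had 72 above and 87 below and both arms 61 and 32. With no filter, 244 were above in OIR, 502 in CTL and 219 in both. At 1000 RPM or more, OIR had 23 above and 22 below, CTL 50 and 27, and both arms 19 and 12.

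Of the 70 miRNAs followed under all scalings, 7 had a CTL ratio past a threshold that changed side of 1 with total reads, TMM sizes or no retinal lists in the denominator, by construction of the denominator: miR-21-5p (0.995 with TMM sizes only), miR-542-3p (0.961, 0.900 and 0.925), miR-379-5p (0.986, 0.923 and 0.949), miR-130a-3p (0.915, 0.857 and 0.881), miR-136-3p (0.864, 0.809 and 0.832), miR-144-3p (0.917, 0.858 and 0.882) and miR-499-5p (0.946, 0.886 and 0.911). The miR-15 family median in CTL became -0.21, -0.31 and -0.27. The tRNA ratio was 10.7 in CTL with reads, 9.45 with all listed UMIs and 7.43 with total reads, and in OIR 1.91 with all listed UMIs and 1.83 with total reads.

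DESeq2 called 7 higher and 14 lower for age, and 7 and 7 for the tissue difference, where edgeR called 0, and the cause was not tested. Leaving out 1 library at a time gave edgeR 0 to 14 higher and 0 to 18 lower for age (14 and 18 without P7 OIR choroid), and 0 to 13 higher for the tissue difference (13 without P7 OIR retina). No paired analysis was possible because each group is 1 library and the labels give no replicate numbers. Depth limits miRNAs near 10 UMIs, where an entry is not listed.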
